A study of Mus musculus with 11 samples.

Results

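The regions described here are H3K4me1 peaks of mouse embryonic stem cells. They lie between protein-coding genes and overlap no called peak of the other 2 marks profiled. They are unified H3K4me1 peaks on chromosomes 1 to 19, under 5000 bp wide, that overlap no unified H3K9me3 or H3K27me3 peak and no protein-coding gene body and lie more than 1000 bp from both ends of every protein-coding gene. The rule kept 8787 of 37256 unified H3K4me1 peaks. It used peak positions and widths, so these are descriptions, while DNA methylation was not used by it. Narrow H3K4me1-only peaks inside gene bodies (14355) and near gene ends (3560) served for comparison.

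The cells were the E14 line, of 129/Ola background, kept in serum with leukemia inhibitory factor. They were profiled by CUT&Tag-BS, in which an antibody guides a protein A-Tn5 transposase to a histone mark and the tagged fragments are bisulfite converted before sequencing, so that methylation is read on DNA taken from chromatin with the mark. Bisulfite libraries were made for H3K4me1 and H3K9me3 from 250000 cells, each given as run 1 and run 2, and for H3K27me3 from 4000, 20000, 100000 and 250000 cells. Reads were 35 bp long in run 1 and 75 bp long in run 2. A control without bisulfite conversion was made for each mark from 250000 cells. No group was treated, and all samples come from 1 line.

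H3K4me1 is placed by the MLL3 and MLL4 methyltransferases and marks enhancers, both active and primed, as well as the shoulders of active promoters. H3K27me3 is placed by Polycomb repressive complex 2, and H3K9me3 is a mark of heterochromatin. Enhancers bound by transcription factors typically have less CpG methylation than the surrounding genome, where most CpGs are methylated.

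Some of these regions hold the start of a long noncoding RNA (lncRNA), since only protein-coding genes entered the rule. For those, the promoter window of RefSeq (assembly GRCm38.p6, 250 bases before to 50 after the start) gives the DNA on which the calls were made. The windows below were chosen after their values were seen, as the 3 least and the 3 most methylated of 47 genes whose window lay whole inside a peak with at least 8 CpGs and 30 calls. The last one belongs to the region with the most calls. Capitals mark the CpGs, the only bases at which methylation was counted, and each sequence runs 5′ to 3′ on the strand of the gene.
Gm39329: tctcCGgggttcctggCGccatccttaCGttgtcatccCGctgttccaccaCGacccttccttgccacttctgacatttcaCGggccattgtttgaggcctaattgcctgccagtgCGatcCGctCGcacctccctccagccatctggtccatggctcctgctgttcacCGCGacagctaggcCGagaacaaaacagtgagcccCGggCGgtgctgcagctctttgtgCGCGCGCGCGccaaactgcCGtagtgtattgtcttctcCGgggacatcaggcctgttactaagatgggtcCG
E130006D01Rik: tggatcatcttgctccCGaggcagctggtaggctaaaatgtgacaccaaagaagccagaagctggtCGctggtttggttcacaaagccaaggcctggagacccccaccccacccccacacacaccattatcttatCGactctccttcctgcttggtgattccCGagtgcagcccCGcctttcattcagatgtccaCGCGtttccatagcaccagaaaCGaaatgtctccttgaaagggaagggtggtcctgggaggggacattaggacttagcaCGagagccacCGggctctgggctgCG
2310015A10Rik: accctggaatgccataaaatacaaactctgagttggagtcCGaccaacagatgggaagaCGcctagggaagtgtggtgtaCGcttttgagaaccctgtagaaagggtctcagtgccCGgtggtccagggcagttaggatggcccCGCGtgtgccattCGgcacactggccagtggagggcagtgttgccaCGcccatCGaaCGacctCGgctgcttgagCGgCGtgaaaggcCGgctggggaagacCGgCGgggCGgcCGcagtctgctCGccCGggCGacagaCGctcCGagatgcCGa
Gm34700: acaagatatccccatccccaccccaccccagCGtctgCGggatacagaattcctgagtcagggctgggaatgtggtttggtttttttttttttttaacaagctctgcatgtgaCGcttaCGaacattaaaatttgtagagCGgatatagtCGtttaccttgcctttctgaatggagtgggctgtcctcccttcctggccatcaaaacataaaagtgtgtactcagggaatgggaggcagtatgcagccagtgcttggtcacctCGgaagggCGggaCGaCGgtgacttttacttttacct
Gm46587: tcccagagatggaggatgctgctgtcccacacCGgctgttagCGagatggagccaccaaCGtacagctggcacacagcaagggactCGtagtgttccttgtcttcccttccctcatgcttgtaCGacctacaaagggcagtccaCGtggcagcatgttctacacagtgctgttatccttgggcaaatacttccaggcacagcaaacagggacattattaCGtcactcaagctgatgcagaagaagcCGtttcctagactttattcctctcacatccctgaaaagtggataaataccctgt
Gm30456: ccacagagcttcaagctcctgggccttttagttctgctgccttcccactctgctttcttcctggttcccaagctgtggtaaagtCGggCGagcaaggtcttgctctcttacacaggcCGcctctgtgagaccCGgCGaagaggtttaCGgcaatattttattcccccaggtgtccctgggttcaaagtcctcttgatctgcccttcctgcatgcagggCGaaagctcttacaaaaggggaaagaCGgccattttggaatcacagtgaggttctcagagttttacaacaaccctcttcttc
Gm34056: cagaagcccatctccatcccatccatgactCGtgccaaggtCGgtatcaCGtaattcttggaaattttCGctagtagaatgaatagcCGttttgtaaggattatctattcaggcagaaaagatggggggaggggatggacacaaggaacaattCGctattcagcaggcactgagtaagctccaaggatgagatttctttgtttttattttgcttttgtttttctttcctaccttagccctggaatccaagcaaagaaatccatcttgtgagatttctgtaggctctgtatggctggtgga

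The first 3 windows had no methylated call in H3K4me1 run 2. Gm39329 (chr9:46328715-46329014, plus strand) holds 22 CpGs and had 0 methylated of 126 calls, which allows a level of up to 2.38%. E130006D01Rik (chr5:111761679-111761978, minus strand) holds 11 CpGs and had 0 of 87 calls, which allows up to 3.45%. 2310015A10Rik (chr12:80132795-80133094, minus strand) holds 24 CpGs and had 0 of 71 calls, which allows up to 4.23%. These limits take every call as independent. No CpG of the windows had more than 10, 13 and 5 calls, in that order, so the true limits are wider. The DNA around these windows in the same peak was at other levels. The rest of the peak was at 9.93% of 423 calls around Gm39329, at 41.1% of 538 calls around E130006D01Rik and at 58.7% of 254 calls around 2310015A10Rik. In the H3K27me3 library from 250000 cells the 2310015A10Rik window had 0 methylated of 88 calls, and the rest of its peak was at 23.4% of 64 calls. In that library the Gm39329 window had 1 methylated of 16 calls and the E130006D01Rik window 1 of 17.

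The 3 most methylated windows hold 8 to 10 CpGs. Gm34700 (chr5:146700233-146700532, plus strand) was at 62.8% of 43 calls (Wilson 95% interval 47.9 to 75.6%). Gm46587 (chr17:87570708-87571007, minus strand) was at 69.5% of 59 calls (56.9 to 79.7%). Gm30456 (chr10:126935150-126935449, minus strand) was at 75.8% of 33 calls (59.0 to 87.2%). The rest of their peaks was at 50.0, 48.2 and 58.3%, so these windows were not low within their peak. In H3K27me3 from 250000 cells the Gm34700 window was at 20% of 10 calls (5.67 to 51.0%) and the Gm46587 window at 56.2% of 16 calls (33.2 to 76.9%), and the Gm30456 window had no call. Gm34056 (chr1:136662196-136662495, minus strand) holds 6 CpGs and was at 24.4% of 45 calls, close to the 21.8% of 1645 calls in the rest of its peak.

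Over lncRNA windows that lay whole inside these regions, chromosome 18 left out, most were less methylated than the DNA around them. Each gene gave the window with the most run 2 calls. In 239 regions with a whole window, 1 window each, the window was at 17.0% of 8010 run 2 calls and the rest of the region at 27.6% of 40501 calls. Of the 180 regions with 10 or more calls in both, the window was lower in 127 and higher in 53, with a median difference of -9.88 percentage points. Windows with 8 or more CpGs were at 10.2%, against 25.9% for the rest of their 56 regions, and were lower in 44 of 52. Windows with fewer CpGs were at 22.2%, against 28.1%. In the H3K27me3 library from 250000 cells, whole windows were at 17.2% of 956 calls and the rest at 32.4% of 4339 calls. CpG number differs between windows and the rest, and its part in the difference was not tested.

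Exact matches to 6 motifs were counted on both strands of the 292 whole windows, as a description of letters only. The KLF motif CCACACCC was in 9.93% of them, against 3.43% of 11311 lncRNA windows and 3.57% of all 31396 promoter windows of the same length. The octamer ATGCAAAT was in 2.05%, against 1.87% and 1.75%. The AP-1 motif TGANTCA was in 8.22%, against 9.25% and 7.84%. TCAAGGTCA, the ESRRB motif, was in 0.342%, against 0.557% and 0.417%, and a core of the CTCF motif was in 0.342%, against 0.301% and 0.376%. The OCT4-SOX2 composite was in 0 of 292, against 0 of 11311 lncRNA windows and 2 of all 31396. Among these 6, the KLF letters showed the widest gap between windows inside these regions and all windows. The octamer overlaps the composite in its last letters.

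The regions were short and far from genes. Their width ran from 501 to 4996 bp with a median of 1016 bp, and they held a median of 13 CpGs (0 to 164), or 12.2 per kb. Peaks inside gene bodies had 11.98 CpGs per kb and those near gene ends 20.1. The nearest end of a protein-coding gene was a median of 19273 bp away, 5897 regions (67.1%) were over 10 kb away and 1171 (13.3%) over 100 kb. Each chromosome held 238 to 709. Some annotated noncoding gene or pseudogene overlapped 2184 (24.9%), in 2037 cases a lncRNA, so "between genes" holds for protein-coding genes. MicroRNA genes were overlapped by 6 regions, among them 1 over Mir192 and Mir194-2 at 65.5% of 84 calls and 1 over Mir1983 at 7.04% of 71 calls.

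The regions were not equally well supported as peaks. H3K4me1 run 1 called a peak over 86.0% of them, run 2 over 79.5% and the control without bisulfite over 78.3%. All 3 lists held 5573 (63.4%), with a median width of 1532 bp and a run 2 methylation level of 27.9%. The 1718 regions of 1 list only had a median width of 501 bp, a median of 15 calls and a level of 38.5%. Regions of 2 lists lay between, at 33.7%.

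Coverage was read against the label, as a description only. The regions are H3K4me1 peaks called in this series, and the rule left out peaks of the other marks. High H3K4me1 coverage, and low H3K27me3 coverage against all of chromosomes 1 to 19, thus follow from how the regions were chosen. Per CpG, the H3K4me1 runs had 10.9 times as many calls in these regions as over all of chromosomes 1 to 19. H3K9me3 had 1.00 and 0.845 times as many in run 1 and run 2, and the 4 H3K27me3 libraries had 0.299 to 0.342 times as many. All of chromosomes 1 to 19 include the H3K27me3 peaks. Against intergenic CpGs outside all peaks, each H3K27me3 library had more calls per CpG in these regions. From 250000 cells it had 0.535 calls per CpG in the regions and 0.336 at those intergenic CpGs. Total calls ran from 378056 (H3K27me3, 4000 cells) to 37177077 (H3K27me3, 250000 cells), with 4917718 and 9690770 for the H3K4me1 runs. Of the 8787 regions, 6891 had 20 or more run 2 calls, 55 had none and 39 of them held no CpG.

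Run 1 and run 2 of a mark were taken as 2 readings of 1 library, so no replicate error exists here and intervals cover counting error only. At CpGs of these regions called once in each H3K4me1 run, both calls had the same state in 91.5% of 7055, while 2 calls within run 2 had the same state in 70.0% of 22095. For H3K9me3 the shares were 93.8% and 74.4%. For H3K27me3 from 100000 and 250000 cells they were 72.9% and 75.8%. Calls on 1 fragment are not independent molecules, so the true uncertainty is wider than the binomial one.

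Methylation in these regions was low to middling. Of 841538 run 2 calls, 28.66% were methylated (Wilson 95% interval 28.56 to 28.76%), and of 426406 run 1 calls 28.7%. The 19 chromosomes ran from 25.96 to 32.2% in run 2, with an SD of 1.48 points. Intergenic CpGs outside all peaks were at 50.4% in the same library. Among the 6891 regions with 20 or more calls, the median was 30.6% and the quartiles 18.2 and 45.0%. Only 5.12% of them were at or under 5%, and 1.10% were above 80%. Near gene ends 28.0% of peaks were at or under 5%, and inside gene bodies 3.96%.

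The level depended on how calls were weighted. It was 35.0% as a mean of single CpG levels, 25.1% over CpGs with 5 or more calls and 18.3% over CpGs with 10 or more calls. Better covered CpGs were thus less methylated, and a level quoted for these regions holds for its weighting.

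**Figure D1:**
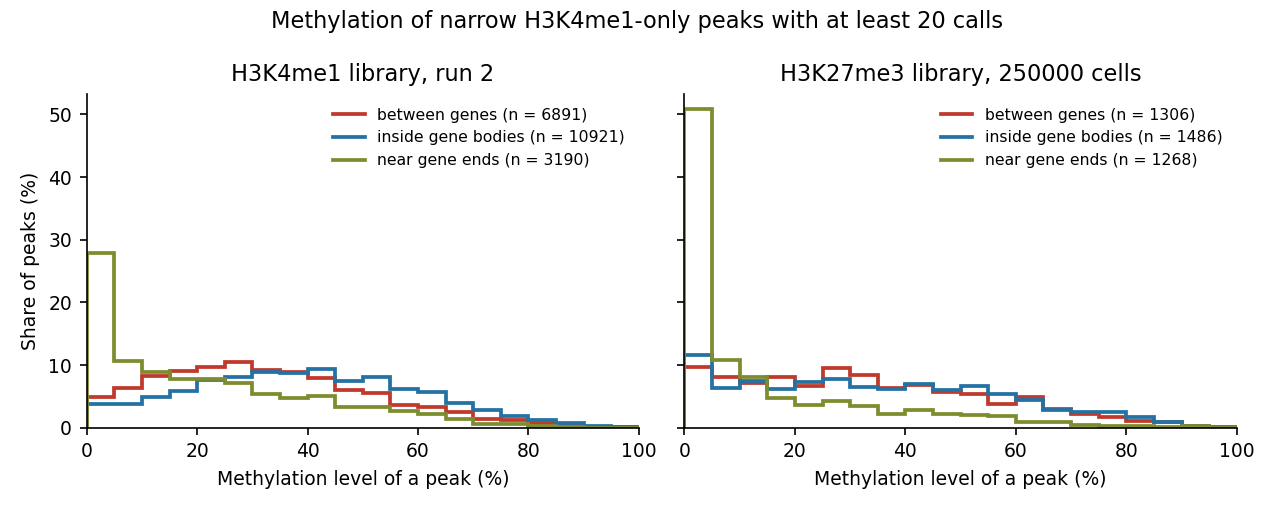
Share of narrow H3K4me1-only peaks (vertical axis, %) by methylation level of the peak (horizontal axis, %, steps of 5 points), in H3K4me1 run 2 on the left and the H3K27me3 library from 250000 cells on the right, for peaks with at least 20 calls. In run 2 the peaks between genes spread around a median of 30.6%, while 28.0% of peaks near gene ends sat at or under 5%.

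With calls pooled, the other libraries gave higher levels in the same regions. H3K9me3 run 2 was at 36.9% of 41175 calls, and H3K27me3 at 31.3, 31.6, 33.9 and 34.4% from 4000, 20000, 100000 and 250000 cells. Intergenic CpGs outside peaks were at 83.9% in H3K9me3 run 2 and 75.2% in H3K27me3 from 250000 cells, so all libraries had less methylation in these regions than around them. At the 52211 CpGs called both in H3K4me1 run 2 and in H3K27me3 from 250000 cells, the levels were 26.8% and 34.1%, a difference of 7.23 points. The smaller H3K27me3 libraries differed from run 2 by 6.89 to 8.30 points at shared CpGs, and H3K9me3 run 2 by 12.6 points. These levels pool calls, so each library weights the shared CpGs by its own depth. As a mean of single CpG levels, run 2 was at 35.0% in these regions, and that mean was not computed for H3K27me3. Region by region, H3K27me3 from 250000 cells was higher by a median of 1.87 points over 1287 regions, and H3K9me3 run 2 by 5.38 over 397. The part of weighting in the pooled differences was not tested. Each mark has 1 library at a given cell number, so all these differences compare libraries and carry no test.

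The order of the regions was similar between libraries. Across the 5112 regions with 20 or more calls in both H3K4me1 runs, Pearson's r was 0.942. Between run 2 and H3K27me3 from 250000 cells it was 0.790 over 1287 regions, and between run 2 and H3K9me3 run 2 it was 0.758 over 397. These are descriptions across regions, which share the same sequence and CpG density in both libraries.

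Single regions were then compared between H3K4me1 run 2 and H3K27me3 from 250000 cells by Fisher's exact test (two-sided, Benjamini-Hochberg over all H3K4me1 peaks tested, threshold 0.05), at CpGs called in both and with 10 or more calls in each. The test takes calls as independent, but calls on 1 fragment are not, so its p-values may be too small. Of 2646 regions deep enough, 89 passed (3.36%), against 7.05% of all 15881 peaks tested. The H3K27me3 library was higher in 82 (3.10%, against 3.17% of all peaks) and lower in 7 (0.265%, against 3.88% of all peaks). The share with higher calls was thus close to that of all peaks. The low share with lower calls was found in the other narrow H3K4me1-only peaks too, at 0.314% of 3180 inside gene bodies and 0.319% of 1882 near gene ends. All peaks include those that overlap the other marks. The median difference was 2.87 points, against 2.39 inside gene bodies, 0 near gene ends and 0 over all peaks. With run 1 in place of run 2 the counts were 36 and 4 of 2253 regions tested, where 4.42% of all 14446 peaks tested were called in either direction.

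The largest difference with the H3K27me3 library higher lay 21.0 kb from Dync1li1, which encodes a dynein light intermediate chain (chr9:114666592-114667862). At shared CpGs the region was at 9.09% of 33 run 2 calls and 82.4% of 17 H3K27me3 calls. The difference was 73.3 points (Fisher's exact test, adjusted p = 2.85e-05), with all these calls on 8 CpGs. Over the whole region run 2 was at 21.4% of 70 calls, and H3K27me3 from 100000 cells was at 33.3% of 21 calls, so the other H3K27me3 library was much nearer to run 2. Regions near Rai14, Enah, Skor1 and Tcp11 followed, with differences of 59.4, 59.0, 57.6 and 54.4 points, each on 10 to 14 H3K27me3 calls.

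The largest difference with the H3K27me3 library lower lay 76.5 kb from Sik1, a salt-inducible kinase gene (chr17:31766731-31767715). It was at 62.5% of 104 run 2 calls and 16.2% of 37 H3K27me3 calls, a difference of -46.3 points (Fisher's exact test, adjusted p = 6.73e-05). H3K27me3 from 100000 cells was at 47.1% of 17 calls there, nearer to run 2. Near Foxn3, a forkhead factor gene, the difference was -39.7 points, and near Sema3f, which encodes a secreted semaphorin, it was -35.5 points at shared CpGs. Over the whole Sema3f region run 2 was at 34.0% of 159 calls, H3K27me3 from 250000 cells at 17.8% of 45 and H3K27me3 from 100000 cells at 29.0% of 31, so the levels lay closer together than at shared CpGs. The regions near Rbm47 and 4931429L15Rik followed at -28.2 and -19.2 points, and both overlap a lncRNA gene.

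Methylation was lowest at the middle of a region. Within 250 bp of the centre, H3K4me1 run 2 was at 25.5%, and 3 to 5 kb away, outside other peaks and protein-coding genes, it was at 60.4%, a difference of -34.9 points. Run 1 gave -34.3 points. H3K27me3 from 250000 cells rose from 30% to 77.3%, and H3K9me3 run 2 from 32.9% to 81.7%. The gap between H3K4me1 run 2 and H3K27me3 was smaller at the centre than in the flanks. Coverage moved along with it: run 2 had 4.98 calls per CpG within 250 bp of the centre and 0.400 at 4750 to 5000 bp, and H3K27me3 from 250000 cells had 0.645 and 0.424. The part of coverage in the dip was not tested.

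**Figure D2:**
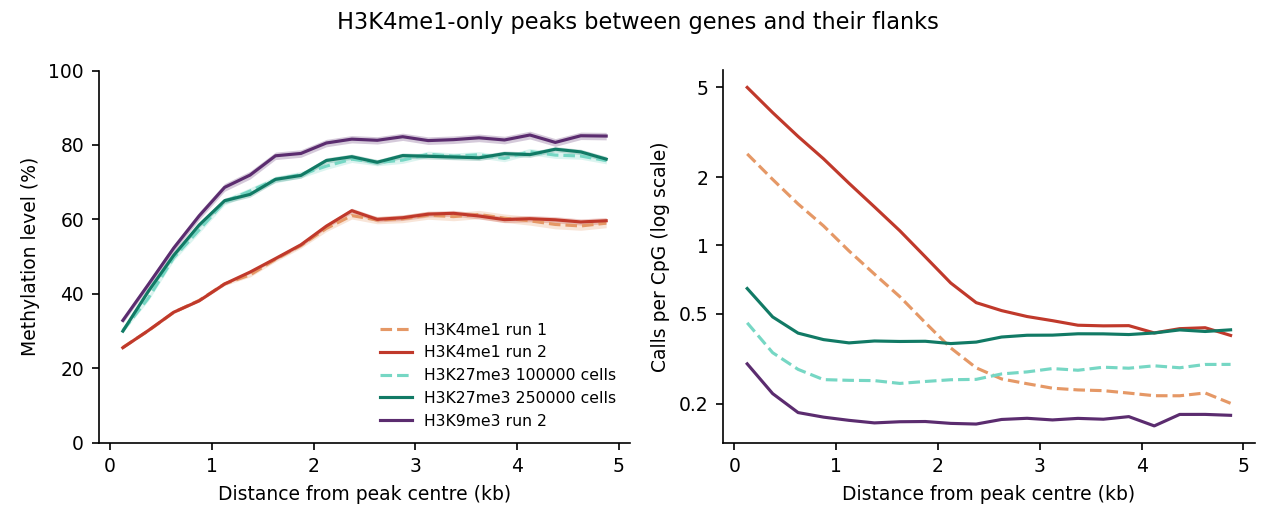
Methylation level (left, %) and calls per CpG (right, log scale) against distance from the centre of the region in kb, in bins of 250 bp, for 5 bisulfite libraries, with Wilson 95% bands on the left. Every library shown was lowest in the first bin, and the H3K4me1 runs levelled off near 60% where H3K27me3 from 250000 cells reached 77.3%.

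Single CpGs ranged widely. Of 21817 CpGs with 10 or more run 2 calls, 65.7% were at or under 20%, 30.9% lay between 20 and 80% and 3.44% were at or over 80%. No methylated call at all was seen at 34.7% of them. The regions held 163823 CpGs, so these shares hold for the better covered ones, which were less methylated. Run 2 was at 18.3% over CpGs with 10 or more calls, against 28.66% over all calls. Neighbouring CpGs differed inside a region: among 1586 regions with 5 or more such CpGs, the median span from the least to the most methylated CpG was 53.3 points, and in 880 (55.5%) it was 50 points or more. With about 10 calls a CpG, counting error alone widens such a span. CpGs inside gene bodies were at or under 20% in 56.2%, and those near gene ends in 71.4%.

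**Figure D3:**
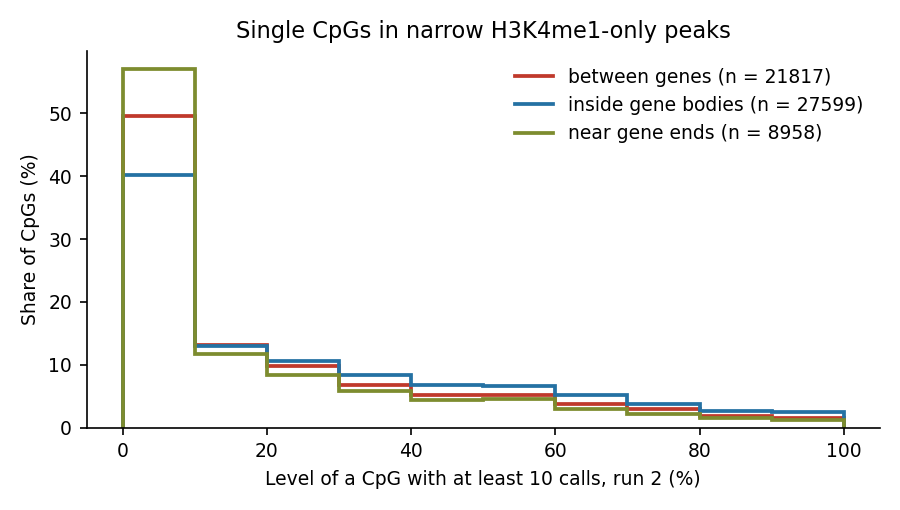
Share of single CpGs (vertical axis, %) by methylation level (horizontal axis, %, steps of 10 points), for CpGs with at least 10 calls in H3K4me1 run 2. CpGs between genes lay between the other 2 classes, with 65.7% at or under 20%, against 56.2% inside gene bodies and 71.4% near gene ends.

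Compared with the other narrow H3K4me1-only peaks, regions between genes had a level in between. A binomial model over all such peaks, with standard errors clustered by chromosome, gave 28.7% between genes and 35.4% inside gene bodies, a difference of -6.79 points (SE 0.280, p = 3.39e-15, two-sided), lower on 19 of 19 chromosomes (-8.57 to -4.67 points). At CpGs also called in H3K27me3 from 250000 cells this difference was -4.32 points. Against peaks near gene ends, at 20.03%, the difference in the same binomial model was 8.63 points (SE 0.494, p = 3.05e-12), higher on 19 of 19 chromosomes (4.62 to 13.0 points). These tests compare classes of peaks inside 1 library.

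The comparison with gene ends came out differently at low and high CpG density. Among peaks under 15 CpGs per kb, regions between genes were at 30.2% and peaks near gene ends at 31.3%, a difference of -1.13 points in the binomial model (SE 0.541, p = 0.0494). Among peaks with 15 or more, the levels were 26.7% and 17.1%, a difference of 9.58 points in the binomial model (SE 0.499, p = 3.92e-13). This split was chosen after the levels by density were seen, and density still differed within it. With 30 or more CpGs per kb there were 209 regions but 1084 peaks near gene ends. At 15 to 20, 20 to 30 and 30 or more, regions between genes were at 28.9, 24.9 and 14.8%. Peaks near gene ends were at 26.6, 20.2 and 8.19%. With density and width as terms of the binomial model the difference was 4.29 points (p = 2.02e-07), and among peaks under 2 kb it was 15.5 points. The difference from gene bodies kept its direction on both sides of the split, at -7.14 and -6.52 points.

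The level hardly moved with density up to 20 CpGs per kb and was lower above that. Regions with under 5 CpGs per kb were at 31.1%, and those with 5 to 10, 10 to 15 and 15 to 20 at 30.7, 29.96 and 28.9%. Levels then fell to 24.9% at 20 to 30 and 14.8% at 30 or more, where 209 regions lay. Over the same steps, peaks near gene ends went from 41.5% to 8.19% and peaks inside gene bodies from 42.8% to 22.0%. The difference in slope was not tested. H3K27me3 from 250000 cells fell with density in these regions as well, from 44.1% to 17.0%.

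**Figure D4:**
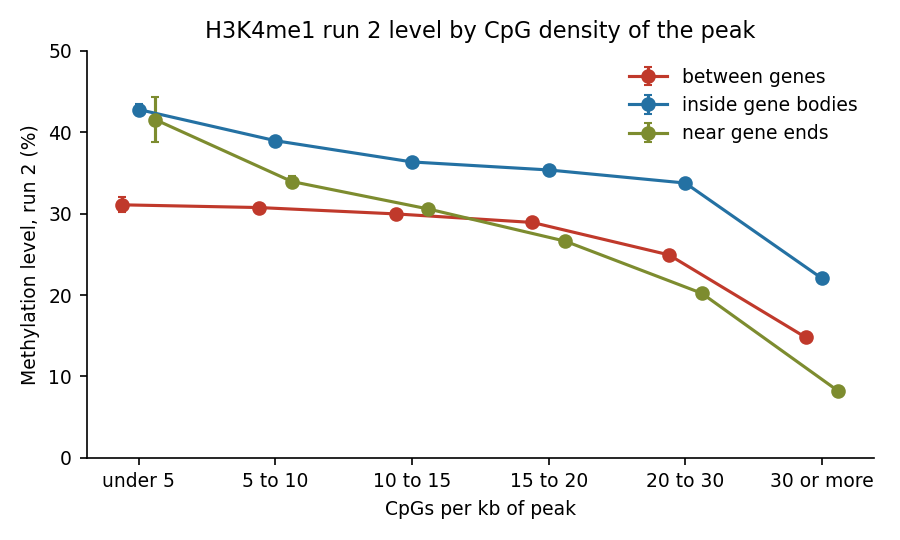
H3K4me1 run 2 methylation level (vertical axis, %) by CpGs per kb of the peak (horizontal axis), with Wilson 95% intervals, for the 3 classes of narrow H3K4me1-only peaks. Regions between genes stayed at 28.9 to 31.1% up to 20 CpGs per kb, below gene ends in the first bins and above them from 15 CpGs per kb on.

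Width and position moved the level by a few points. Regions under 1 kb were at 33.0%, and those of 4 to 5 kb at 25.4%. By distance to the nearest gene end the level ran from 27.4% (1 to 3 kb) to 29.5% (30 to 100 kb) and was 25.8% for the 228 regions beyond 300 kb, which had 9.08 CpGs per kb. At the limits of the rule, the 143 regions from 4500 to under 5000 bp wide were at 25.2%, and the 105 peaks from 5000 to under 5500 bp, just outside it, at 24.98%. The 286 regions over 1000 and up to 1500 bp from a gene end were at 29.8%, and the 337 peaks over 500 and up to 1000 bp away, outside the rule, at 26.7%.

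Many regions had a close neighbour. The next region was under 5 kb away for 4511 (51.3%), and those were at 29.6%, while the 1723 with none within 50 kb were at 25.8%. Adjacent regions had nearly unrelated levels: over 2350 pairs under 10 kb apart with 20 or more calls in each Pearson's r, with each pair entered in both orders, was 0.0669, and the median difference within a pair was 17.5 points.

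The least methylated well-covered regions were at 0 in run 2. A region 47.3 kb from Tcte2 (chr17:13668245-13669101) had 0 methylated of 168 calls and 0 of 69 in run 1. The 168 calls would allow up to 1.79% if they were independent. Regions near Gnl1, Clic4 and Mgat4f had 0 of 145, 110 and 103 calls. The fifth lay 11.997 kb from Klf4, the gene of a Krüppel-like pluripotency factor (chr4:55514635-55515140). It is 506 bp long with 38 CpGs, and had 0 of 98 calls in run 2, 0 of 69 in run 1 and 0 of 26 in H3K27me3 from 250000 cells. At the other end, a region 11.4 kb from Syt14, a synaptotagmin gene (chr1:192869850-192871274), was at 82.3% of 62 run 2 calls and 83.3% of 42 run 1 calls. In other libraries the Syt14 region was lower, on few calls. It had 0 methylated of 5 calls in H3K27me3 from 250000 cells, and was at 33.3% of 3 calls from 100000 cells. H3K9me3 run 2 was at 50% of 14 calls there. Regions near Pmepa1, Gm4791, Ap3b1 and Hspb8 were at 77.1, 76.4, 74.0 and 73.6% in run 2. In H3K27me3 from 250000 cells they were at 81.8, 85, 94.1 and 88% of 11, 20, 17 and 25 calls. These regions were chosen by their run 2 level, and run 1 is taken as a second reading of the same library.

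The 2 regions farthest from any protein-coding gene had low levels. The farthest lay 1971.47 kb from Celf4 and was at 4.85% of 165 run 2 calls. The next lay 1814.4 kb from Pcdh7, a protocadherin gene, and was at 9.30% of 86 calls. The other 3 had only 12 to 23 calls.

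Around genes of the pluripotency network, regions covered the whole range. Of 41 listed genes, 31 were the nearest protein-coding gene, within 100 kb, of at least 1 region, 154 regions in all, and the 131 with 20 or more calls had a median of 34.4%. All 6033 such regions within 100 kb of any protein-coding gene had a median of 30.8%. Of 27 genes of other lineages, 26 were matched and 5 had a region, 9 regions in all. The median of the 7 regions with enough calls was 15.0%. Among all 20665 protein-coding genes, 3627 had a region within 100 kb. The rule left out peaks that overlap H3K27me3 or H3K9me3 peaks, so all these counts hold after that filter. These lists are descriptions, and nearness does not show which gene a region acts on.

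Sox2, which encodes a partner of OCT4, had 10 regions. The one 2.387 kb away, over the lncRNA gene Sox2ot, was at 22.3% of 382 run 2 calls and 20.6% of 160 run 1 calls. A region 90.9 kb away was at 33.0% of 318 calls, and one 36.0 kb away at 68.7% of 67 calls. The 2 widest Sox2 regions were thus at 22.3 and 33.0%, and the highest level was at a region of 1553 bp.

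Nanog, the gene of a homeobox pluripotency factor, had 4 regions, at 14.4, 36.6, 36.1 and 47.3% in run 2 in order of distance from 6.982 to 19.6 kb. Run 1 gave 22.1, 34.2, 34.6 and 50.6%. The nearest Nanog region was the lowest in both runs.

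Zfp281, a zinc finger factor gene, had 16 regions, from 14.3 to 77.8%. One of them (chr1:136658106-136662627, 27.7 kb away) had the most calls of all 8787, with 21.9% of 1690 in run 2 and 20.7% of 846 in run 1. H3K27me3 from 250000 cells was at 21.3% of 94 calls there. It holds the Gm34056 start shown above.

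Mycn, a MYC family gene, had 14 regions, of which the best covered was at 17.4% of 821 run 2 calls and 17.2% of 348 run 1 calls. Tbx3, a T-box factor gene, had 16, of which the best covered was at 13.2% of 501 and 13.0% of 316 calls. Sall1, a zinc finger gene, had 11 regions, with well-covered ones at 21.0% of 543 and 30.7% of 437 calls. The best covered region near Zfp42, the gene of the naive marker REX1, was at 16.5% of 436 calls.

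Genes differed in their medians. Among the 18 genes with 3 or more regions of 20 calls, the lowest medians were at Id3 (18.5%), Tet2 (19.3%) and Jarid2 (21.7%), and the highest at Myc (58.7%), Socs3 (48.7%) and Prdm14 (47.4%). The regions of 1 gene often spread further than the medians of different genes: at Myc they ran from 8.89 to 84.0%.

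**Figure D5:**
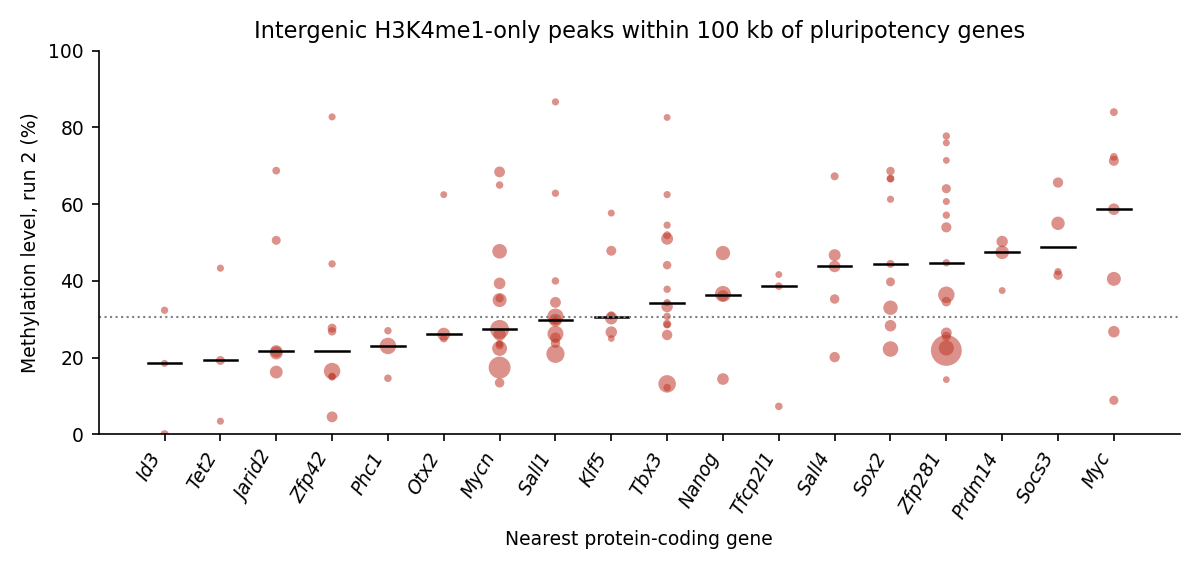
H3K4me1 run 2 methylation level (vertical axis, %) of each region with at least 20 calls within 100 kb of a pluripotency gene, for the 18 genes with 3 or more such regions. Each point is a region, larger with more calls, black lines are medians per gene and the dotted line is the 30.6% median of all regions; the largest point is the Zfp281 region at 21.9%.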

How the data were processed

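Mouse E14 cells were profiled by CUT&Tag-BS in 8 bisulfite libraries, with 3 controls without bisulfite. The deposited table gives whole-number counts of methylated calls and of all calls per CpG and library, without normalization. The deposited peak lists give positions only. The submitters' processing notes name build mm10 and cutadapt 1.12, Bismark 0.23.0, Bowtie2 2.3.0, HOMER 4.10.3 and bedtools 2.29.2, with no roles. All 395568 CpGs of 31396 RefSeq promoter sequences (GRCm38.p6) matched positions in the table, which was therefore read with that annotation. All count columns were used.

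Levels are methylated over all calls with Wilson 95% intervals, and a count of 0 is given with the limit of 3 calls. Intervals and limits take calls as independent. Run 2 of H3K4me1 is the value reported. Classes were compared with a binomial generalised linear model (statsmodels 0.14.6, standard errors clustered by chromosome), and libraries by Fisher's exact test (scipy 1.17.1) with Benjamini-Hochberg adjustment at 0.05. Both were tested on simulated data: of 200 peaks changed by 40 points among 15881, the Fisher comparison of H3K27me3 from 250000 cells with H3K4me1 run 2 recovered 67.5%. Calls in that Fisher simulation were drawn as independent, so it cannot show how calls shared on 1 fragment affect the p-values. The dispersion of the quasi-binomial alternative was taken from Pearson's chi-square with call numbers included, since the setting built into statsmodels left them out.

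Members and gene lists were chosen with earlier results of these data known; the density split was added after levels were seen. Regions named are the 5 lowest and 5 highest among those with 40 calls at 10 CpGs in both runs, the best covered near pluripotency genes, the 5 largest Fisher differences each way, the 5 farthest from genes and the 5 with most calls, of which some are described. The motif search in peak centres was not run, as no genome sequence was used here.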

Additional observations from a re-analysis of the deposited data

How the results depend on the processing

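No paired analysis was possible because run 1 and run 2 are readings of 1 library of each mark and no 2 groups compared share replicates. Differences from gene bodies and gene ends kept direction and threshold under every other alternative run (run, rule, covariates, standard error, weighting, CpGs). The difference from gene ends turned to -1.13 points among peaks under 15 CpGs per kb, an alternative added after seeing the data, where only the peaks compared differ. Without run 2, it was 9.23 points, and that from gene bodies -6.75 points.

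The level of 28.66% was 35.0% as a mean of CpG levels, 25.1% and 18.3% over CpGs with at least 5 and 10 calls, and 30.6% as a median over regions. It was 29.0% at 10 kb or more from genes, 31.5% under 2 kb, 27.9% in all 3 lists and 28.9% off every annotated gene. Run 1 alone gave 28.7%.

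Fisher calls were 82 higher and 7 lower of 2646 regions, with 7.05% of all peaks called in either direction. The percentages that follow are also of all peaks tested, in either direction. Run 1 gave 36 and 4 of 2253 (all peaks 4.42%), all CpGs of the peak 134 and 13 of 2766 (9.47%), and the 4 H3K27me3 libraries summed 173 and 21 of 4061 (8.15%). H3K27me3 from 100000 cells gave 52 and 5 of 1898 (6.93%). Within the 7.05%, regions under 2 kb gave 42 and 4 of 1587, and regions off every annotated gene 56 and 4 of 1865. The centre-to-flank difference of -34.9 points was -34.3 in run 1 and -34.2 as a mean of CpG levels. The 30.9% of CpGs at middling levels was 23.8% in run 1, 35.8% with runs summed, 35.5% and 19.6% at 5 and 20 calls, and 31.6% at 10 kb or more from genes. Presence in the lists fell to 83.8, 75.5 and 74.7% when 50% of a region had to be covered. The cause of these shifts was not tested. Depth left 2646 of 8787 regions testable against H3K27me3 from 250000 cells.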
